A study of Mus musculus and Acomys cahirinus with 84 samples.

Results

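Primary skin fibroblasts of mice labelled C56BL6 were examined 24 h after a dose of 10 Gy of gamma radiation, beside untreated cells of the same animals. The comparison takes 8 of the 84 libraries of the series: the 4 titled C56BL6, 10 gy, 24h and the 4 titled C56BL6, untreated, 24h. Libraries were chosen by their titles, and libraries with the same replicate number (R1 to R4) were treated as a pair, because the library names give both the same animal code. The study irradiated skin fibroblasts of C56BL6 mice, wild mice and the African spiny mouse A. cahirinus with 0, 10 or 20 Gy and sequenced their mRNA 24 h or 12 d later. All 8 libraries carried the same batch label, came from cultured cells and were stranded libraries of polyA RNA. No transgene, deletion or drug is named for either group, so the groups differ in the labels by dose alone. Age and sex of the animals are not given in the sources used here. A further 4 C56BL6 libraries at 20 Gy and the 24 h libraries of wild mice and A. cahirinus (8 each, untreated and 10 Gy) were used to show where the C56BL6 response at 10 Gy differed.

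Ionising radiation breaks DNA strands. The kinases that sense the breaks stabilise p53, a transcription factor that raises genes for its own restraint (Mdm2), for cell cycle arrest (Cdkn1a, which encodes the cyclin-dependent kinase inhibitor p21), for cell death and for repair. Arrest lowers transcripts of DNA replication and mitosis, and DNA that leaks into the cytosol can raise interferon-stimulated genes, the antiviral programme. In fibroblasts, which build the collagenous matrix of the dermis, damage that persists is known to lead to senescence with secretion of cytokines, proteases and growth factors.

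The 8 libraries held 27858702 to 38670926 counts, so that 3 counts corresponded to 0.0776 to 0.108 counts-per-million (CPM). The marker genes of fibroblasts summed to 11400 to 21860 CPM, with Col1a1 between 5669 and 9733 CPM, although Dcn (0.754 to 25.8 CPM), Lum (0 to 0.437 CPM) and Fap (0.103 to 0.576 CPM) were low. Replicate 1 stood apart from the other animals before and after irradiation: the first principal component, with 53.1% of the variance, separated it. Its keratinocyte markers (Krt5, Krt14, Krt1, Krt10, Krt15 and Cdh1) summed to 388 CPM untreated and 294 CPM at 10 Gy, against 1.14 to 1.86 CPM in the libraries of replicates 2 to 4. Immune markers summed to 10.4 to 27.6 CPM with Cd3e and Adgre1 at 0, endothelial markers to 3.31 to 6.49 CPM with Tie1 at 0, and melanocyte markers to 3.19 to 4.58 CPM with Dct and Tyr at 0. Counts of leading results are therefore also given without replicate 1.

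After 10 Gy, 1646 of 14280 tested genes changed (11.5%) by edgeR's quasi-likelihood test with the animal as a block and Benjamini-Hochberg adjustment at 0.05. Of these, 774 rose (5.42%) and 872 fell (6.11%). Most changes were small: 114 genes rose and 54 fell by at least 2-fold, and the median change of all genes tested was -0.00011 on the log2 scale. The 2-fold counts were 167 and 93 without replicate 1, 76 and 51 without replicate 2, 46 and 33 without replicate 3, and 92 and 47 without replicate 4. The count rests on the pairing of libraries by animal. Without the animal block only 1 gene, Mdm2, passed (0.007%; adjusted p = 0.0466) and 1116 had an unadjusted p below 0.05, against 3642 with it. Without replicate 1 the count was 3400 (23.7%; 11.7% higher and 12% lower), and without replicate 2, 3 or 4 it was 812, 509 or 986. None of the 1646 genes had the opposite sign in any of these fits. With the block, the p-values measure how far the change from untreated to 10 Gy varied among these 4 animals. They do not measure the spread of levels between animals, which the block takes up.

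Among the 114 genes that rose at least 2-fold with all 4 animals, 58 had a mean below 1 CPM and 12 had a mean of at least 5 CPM. Long noncoding RNAs made up 18 of the 114 (15.8%), against 7.77% of all tested genes. The 54 genes that fell at least 2-fold included 21 with a mean of at least 5 CPM. Beside these low-level increases, 3 library measures were higher at 10 Gy than in untreated libraries. Each 10 Gy library detected more genes (21913 to 23096) than any untreated one (20989 to 21852). The mitochondrial share of counts was higher in every pair (1.36% to 1.89% untreated, 1.92% to 2.45% at 10 Gy). The summed level of 1382 olfactory receptor genes, a set chosen after the data were seen, was 9.29 to 11.4 CPM untreated and 12.7 to 15.4 CPM at 10 Gy. The part of these measures in the low-level increases was not tested.

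Direct p53 targets rose, most of them by less than 2-fold. Of 48 listed targets, all tested, 25 rose and none fell at an adjusted p below 0.05, 41 had a positive change, and the median change was 0.28 on the log2 scale. Over all tested genes 5.42% rose. Members of this list and the other lists were chosen with earlier results of these data known, so the counts are descriptive only. Without replicate 1, 31 rose and 1, Btg2, fell. 18 of the 25 remained called whichever animal was left out; Zmat3, Bbc3, Ei24, Zfp365, Ckap2, Pvt1 and Psrc1 lost the call without replicate 2, 3 or 4.

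Among 8 genes that regulate p53 itself, 4 rose and none fell (median 0.17). Mdm2 (chr10:117524780-117546663, minus strand, GRCm39), the ubiquitin ligase that marks p53 for destruction, stood at 223, 216, 206 and 178 CPM in untreated replicates 1 to 4 and at 379, 363, 381 and 353 CPM after 10 Gy. All 4 irradiated libraries lay above all 4 untreated ones, a 1.82-fold rise (log2 fold change 0.86 ± 0.054 (SE), adjusted p = 1.05e-05). Ccng1, the cyclin G1 gene, whose product works with a phosphatase on Mdm2, went from 554, 777, 739 and 599 CPM to 867, 1159.7, 1240.3 and 1118 CPM, again without overlap between the groups (log2 fold change 0.74 ± 0.06 (SE), adjusted p = 8.04e-05). Trp53inp1, a nuclear cofactor of p53, went from 29.8, 61.7, 65.5 and 58.4 CPM to 71.9, 92, 106 and 98.4 CPM, also without overlap (log2 fold change 0.83 ± 0.09 (SE), adjusted p = 0.000308). Zmat3, an RNA-binding protein gene, rose by 1.11-fold (adjusted p = 0.0413), and its call was lost without replicate 2 (adjusted p = 0.133), 3 (0.199) or 4 (0.144). The other 4 members were not called: Trp53 itself changed by 0.082, Mdm4 by 0.18, the ubiquitin ligase gene Rchy1 by 0.096 and the phosphatase gene Ppm1d by 0.09 on the log2 scale.

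Among 11 targets that act on the cell cycle, 3 rose and none fell. Cdkn1a (chr17:29309950-29319701, plus strand, GRCm39) was already abundant in untreated cells at 299, 416, 333 and 356 CPM and reached 418, 466, 453 and 504 CPM. Every pair rose, and all irradiated values lay above all untreated ones, by 1.33-fold on average (log2 fold change 0.42 ± 0.06 (SE), adjusted p = 0.00146). Inka2, an inhibitor of the kinase Pak4, had the largest rise of the 3, from 10.2, 20, 16.7 and 18.1 CPM to 22.6, 32.9, 31.7 and 31.4 CPM, and its groups did not overlap (log2 fold change 0.91 ± 0.075 (SE), adjusted p = 8.62e-05). Gdf15, a secreted stress cytokine, went from 14.5, 15.4, 15.7 and 13.6 CPM to 18.5, 19.4, 28.4 and 21.1 CPM with no overlap (log2 fold change 0.56 ± 0.092 (SE), adjusted p = 0.00299). The remaining 8 did not pass. Gadd45a, a stress sensor, was lower in all 4 pairs (log2 -0.17, adjusted p = 0.199), Btg2, an antiproliferative factor, changed by -0.13, and the kinases Plk2 and Plk3 by 0.098 and -0.011. Sesn1 changed by -0.16 and Sesn2, both stress-response sestrins, by 0.084. Rprm, a G2 arrest gene below 2 CPM in every library, changed by 0.82 (adjusted p = 0.24). Sfn, the 14-3-3 sigma gene of epithelial cells, stood at 69.5, 4.57, 3.41 and 3.8 CPM untreated and 62, 5.28, 5.32 and 5.75 CPM at 10 Gy, high only in replicate 1, the animal with keratinocyte markers (log2 0.21, adjusted p = 0.34).

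The promoter of Cdkn1a is shown because, among the genes called higher, it alone held a match to the p53 response element. The search covered 300 bases (250 before to 50 after the gene start, both strands, RefSeq, GRCm38.p6). A promoter to search was available for 583 of the 774 genes called higher. Among 662 genes called lower that had one, 1 held a match too. The element was searched by its consensus, 2 half-sites 0 to 13 bases apart, and matched 20 of 27025 promoters (0.074%). The 200 bases before the start are printed 5′ to 3′ (chr17:29090779-29090978, plus strand), with the match in capitals, beginning 73 bases before the start.
Cdkn1a: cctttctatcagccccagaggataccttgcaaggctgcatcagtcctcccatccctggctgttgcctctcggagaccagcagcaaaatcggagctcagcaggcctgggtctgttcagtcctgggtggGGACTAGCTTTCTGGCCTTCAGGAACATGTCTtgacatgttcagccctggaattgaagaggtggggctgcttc
A second start listed for the gene, at chr17:29093569-29093768 for the same 200 bases, held none. A match is a description of letters and says nothing about binding in these cells.

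Of 13 targets listed under cell death, 9 rose and none fell, and the median was 0.33, with medians of 0.26 to 0.42 in the 4 pairs. Cd80 (chr16:38275923-38316697, plus strand, GRCm39), which encodes a ligand that costimulates T cells and is no death gene itself, had the largest rise of the 48 p53 targets. It stood at 9.33, 12.8, 21.4 and 17.2 CPM in the untreated libraries and at 22, 32.3, 57.9 and 56.2 CPM after 10 Gy. The irradiated values all exceeded the untreated ones, by 2.75-fold (log2 fold change 1.46 ± 0.08 (SE), adjusted p = 4.12e-06). Pmaip1, which encodes the BH3-only protein Noxa, went from 15.5, 9.86, 6.66 and 5.61 CPM to 24, 14.7, 16.5 and 14.7 CPM; each pair rose, but the lowest irradiated values lay below the untreated value of replicate 1 (log2 fold change 0.96 ± 0.14 (SE), adjusted p = 0.00132). Pidd1, which encodes a death-domain protein that activates caspase-2, went from 12.5, 16.1, 14.4 and 16.7 CPM to 28.7, 27.2, 26.3 and 25.6 CPM with no overlap (log2 fold change 0.87 ± 0.087 (SE), adjusted p = 0.000191). Eda2r, a receptor of the tumour necrosis factor family, went from 42.6, 54.4, 48 and 44.7 CPM to 69.1, 73.2, 84.8 and 72.1 CPM with no overlap (log2 fold change 0.68 ± 0.063 (SE), adjusted p = 0.000158).

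Smaller increases were found for Tnfrsf10b, the mouse death receptor for TRAIL (1.38-fold, adjusted p = 0.000303), Aen, an apoptosis-enhancing nuclease (1.28-fold, adjusted p = 0.000988), and Apaf1, the scaffold of the apoptosome (1.26-fold, adjusted p = 0.00383). Ei24 rose 1.25-fold (adjusted p = 0.00389; 0.0566 without replicate 3), and Bbc3, which encodes Puma, 1.22-fold (adjusted p = 0.0438; 0.15, 0.187 and 0.107 without replicate 2, 3 or 4). Bax, the pore-forming protein of the mitochondrial death pathway, did not pass (log2 0.17, adjusted p = 0.121; log2 0.20, adjusted p = 0.0149 without replicate 1). Phlda3, an inhibitor of Akt, behaved likewise (log2 0.14, adjusted p = 0.12; 0.0172 without replicate 1). Fas, the death receptor, changed by -0.06 (adjusted p = 0.715). Perp, an epithelial adhesion gene, was high only in replicate 1, at 152, 9.58, 2.16 and 0.873 CPM untreated and 127, 10.6, 2.64 and 2.26 CPM at 10 Gy, and did not pass (log2 0.072, adjusted p = 0.818).

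Of 16 targets in repair and metabolism, 9 rose and none fell (median 0.29). Polk, a polymerase that copies past damaged bases, went from 33.7, 45.4, 41.9 and 40.5 CPM to 47.7, 63.1, 59.7 and 58 CPM. The groups did not overlap, and the rise was 1.43-fold (log2 fold change 0.52 ± 0.049 (SE), adjusted p = 0.000158). Dcxr, a sugar reductase, went from 10.5, 12.6, 9.23 and 8.3 CPM to 19.8, 18.9, 17.8 and 17.3 CPM, also without overlap (log2 fold change 0.89 ± 0.088 (SE), adjusted p = 0.00018). Dglucy, a mitochondrial D-glutamate cyclase, went from 57.3, 70.5, 54.6 and 56.2 CPM to 77.9, 84.9, 77.9 and 78.7 CPM (log2 fold change 0.44 ± 0.053 (SE), adjusted p = 0.000542). Ercc5, the endonuclease of nucleotide excision repair known as XPG, went from 39.5, 42.4, 40.2 and 38 CPM to 48.3, 53.8, 55.8 and 51.8 CPM (log2 fold change 0.41 ± 0.055 (SE), adjusted p = 0.00106). All irradiated values of Dglucy and Ercc5 lay above the untreated ones.

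The other called members were the thiamine transporter Slc19a2 (1.31-fold, adjusted p = 0.00284) and the zinc finger gene Zfp365 (1.25-fold, adjusted p = 0.00602; 0.0735 without replicate 3 and 0.0517 without replicate 2). They also included the spindle genes Psrc1 (1.22-fold, adjusted p = 0.00961; 0.0908 without replicate 3) and Ckap2 (1.22-fold, adjusted p = 0.0241; 0.164, 0.154 and 0.0899 without replicate 2, 3 or 4). Pvt1, a long noncoding RNA next to Myc, rose 1.18-fold (adjusted p = 0.0292; 0.132, 0.152 and 0.108 without replicate 2, 3 or 4). The damage sensors of nucleotide excision repair were not called: Ddb2, at 1.39 to 2.71 CPM, changed by -0.20 and Xpc by -0.05. Neither were Rrm2b, the p53-inducible ribonucleotide reductase subunit (0.11), Tigar, a regulator of glycolysis (0.10), Ephx1, an epoxide hydrolase (log2 0.16, adjusted p = 0.0535), Rap2b, a small GTPase (log2 0.24, adjusted p = 0.0788), and Trp53cor1, the lincRNA-p21 gene (log2 0.50, adjusted p = 0.085).

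**Figure D1:**
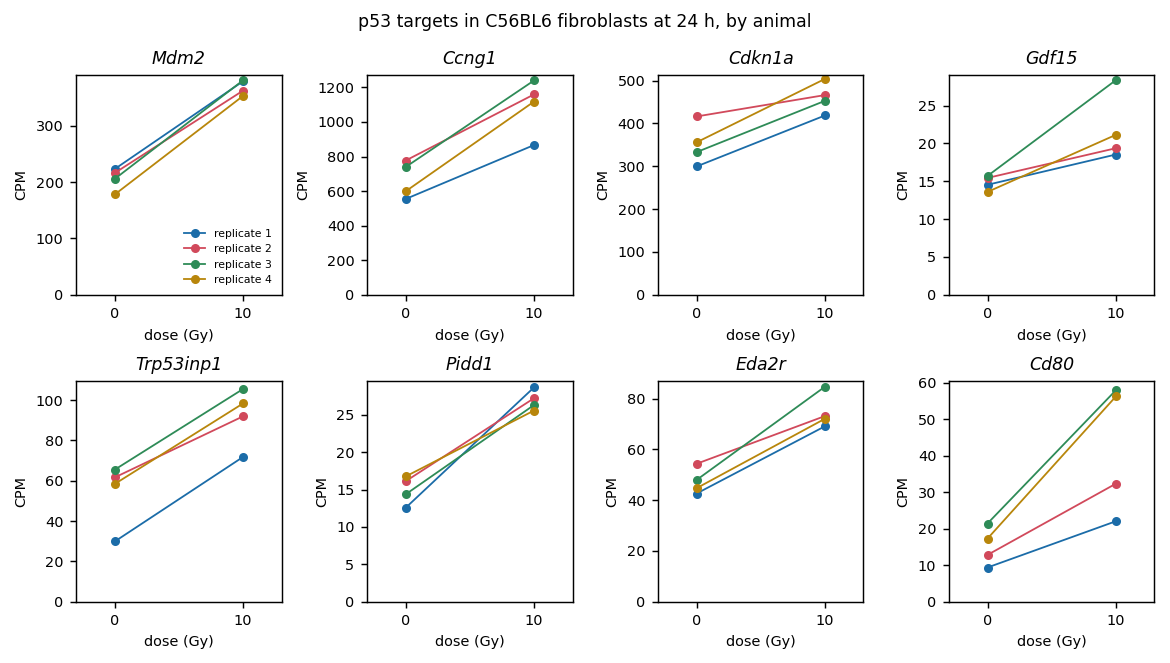
Levels of 8 p53 targets in C56BL6 fibroblasts, in CPM (vertical axes), untreated and 24 h after 10 Gy; each line joins the libraries of 1 animal. Every line rises; Cd80 rises 2.75-fold and Mdm2 1.82-fold, while the animals keep different baselines.

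**Figure D2:**
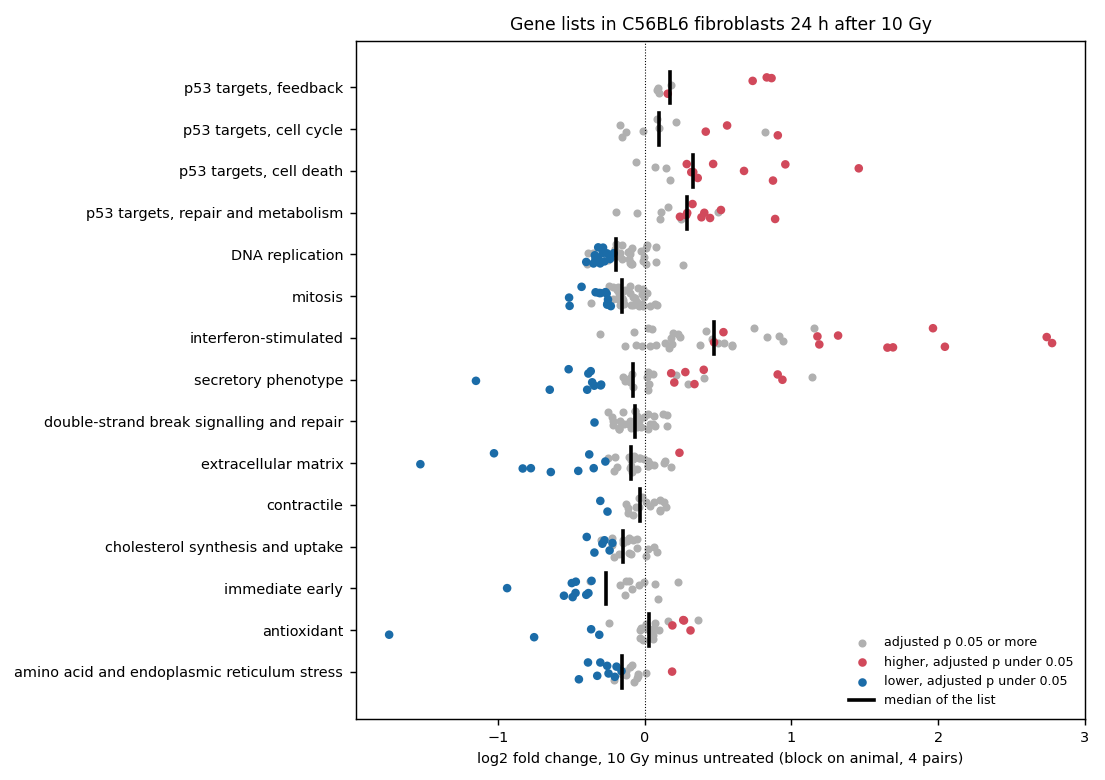
Log2 fold change at 10 Gy (horizontal axis) of each tested gene of 15 lists; red points rose and blue points fell at an adjusted p below 0.05, grey points were not called, and black bars are medians. The 4 p53 lists and the interferon-stimulated list hold red points and no blue ones, and the replication, mitosis and immediate early lists hold blue points and no red ones.

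Transcripts of DNA replication fell slightly. Of 45 listed genes, 15 fell and none rose (median -0.20, with 39 of 45 negative), against 6.11% of all tested genes that fell. Uhrf1, which keeps DNA methylation in place behind the replication fork, went from 81.4, 62.6, 78.6 and 76.1 CPM to 62.1, 54.2, 62 and 62.3 CPM. All 4 pairs fell, and every irradiated value lay below every untreated one, narrowly so for untreated replicate 2 (1.22-fold lower; log2 fold change -0.29 ± 0.051 (SE), adjusted p = 0.00424). Mcm6, a subunit of the replicative helicase, went from 138, 105, 116 and 110.4 CPM to 87.1, 88.1, 94.1 and 93.4 CPM with no overlap (log2 fold change -0.35 ± 0.07 (SE), adjusted p = 0.00897). Its partner Mcm5 went from 73.8, 48.4, 63.7 and 55.8 CPM to 57.9, 44.8, 50.2 and 43.4 CPM, and here the groups overlapped although each pair fell (log2 fold change -0.27 ± 0.057 (SE), adjusted p = 0.0112). Pold1, the catalytic subunit of polymerase delta, went from 42.6, 33.7, 29.3 and 35.5 CPM to 34.1, 27.4, 23.5 and 26.8 CPM, with overlap across animals (log2 fold change -0.32 ± 0.055 (SE), adjusted p = 0.00415).

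The other genes of the list that fell, by 0.21 to 0.40 on the log2 scale, were the helicase subunits Mcm3 and Mcm4, the loading factors Cdc6 and Cdc45, the kinase Cdc7, the sliding clamp Pcna, the clamp loader Rfc4, the ligase Lig1, the thymidine kinase Tk1 and the chromatin assembly factors Chaf1a and Chaf1b. Replicate 1 fell most: the list's median change was -0.40 in that pair and -0.04, -0.16 and -0.12 in the others, and 22 of 45 genes were lower in all 4 pairs. Without replicate 3 only 1 of the 15, Pold1, remained, without replicate 2 or 4 there remained 8 each, and without replicate 1 there remained 14, with 2 further genes higher. In bulk RNA, fewer cells of a type and less RNA per cell cannot be told apart.

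Mitotic genes fell by small amounts too: 12 of 48 fell and none rose (median -0.16, 44 negative), where 6.11% of all genes tested fell. Aurkb (chr11:68936473-68942490, plus strand, GRCm39), the kinase that corrects chromosome attachment, fell from 36.2, 29.8, 32.6 and 33 CPM to 22.3, 22.5, 22.9 and 23.2 CPM. The irradiated libraries lay in a narrow band below every untreated one, 1.43-fold lower (log2 fold change -0.51 ± 0.066 (SE), adjusted p = 0.000778). Fbxo5, the Emi1 inhibitor of the anaphase-promoting complex, fell from 17.4, 12.9, 16.5 and 15.5 CPM to 10.8, 10.2, 11.1 and 10.8 CPM, again without overlap (log2 fold change -0.52 ± 0.081 (SE), adjusted p = 0.00242). Ccna2, cyclin A2, fell from 79.4, 63, 85.8 and 78.9 CPM to 57, 56.4, 64.6 and 61.4 CPM, where only untreated replicate 2 lay within the irradiated range (log2 fold change -0.34 ± 0.059 (SE), adjusted p = 0.00435). Foxm1, the transcription factor of the G2 programme, fell from 96.6, 71.5, 84.4 and 89.5 CPM to 77.6, 62.1, 73.1 and 70 CPM, with overlap across animals (log2 fold change -0.25 ± 0.048 (SE), adjusted p = 0.00702). Top2a, the topoisomerase that untangles chromosomes, fell from 275, 196, 297 and 253 CPM to 199.8, 179, 217 and 210.3 CPM in all 4 pairs (log2 fold change -0.31 ± 0.061 (SE), adjusted p = 0.00839; adjusted p = 0.102 without replicate 3).

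The others that fell were Plk1, Bub1b, Kif11, Birc5, Mybl2, Sgo1 and Hmgb2, by 0.23 to 0.43 on the log2 scale. Mki67, the proliferation antigen, was lower in all 4 pairs, at 227, 182, 246 and 236 CPM untreated and 186, 174, 217 and 210.2 CPM at 10 Gy, but did not pass (log2 -0.16, adjusted p = 0.0651; 0.0464 without replicate 1). Cyclin B genes were not called either: Ccnb1 changed by -0.16 and Ccnb2 by -0.041. Of the 12 calls, 3 (Aurkb, Fbxo5 and Foxm1) remained without replicate 3, 8 without replicate 2, 9 without replicate 4 and all 12 without replicate 1, where 2 further genes rose. The list's median change was -0.34 in replicate 1 and -0.01, -0.15 and -0.06 in the others.

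Promoters of 2 mitotic genes are shown with the TTTGAA element (the CHR letters, searched on both strands over the same 300 bases). It was found in 28 of the 39 mitotic genes with a promoter in the table (71.8%), in 6 of the 9 that fell, in 14.2% of all tested genes and in 20.2% of all promoters. Top2a (chr11:99024190-99024389, minus strand) has matches beginning 179 and 23 bases before its start and Kif11 (chr19:37376182-37376381, plus strand), a motor of the spindle, has 1 beginning 19 bases before; both sequences are GRCm38.p6, 200 bases before the start, with matches in capitals.
Top2a: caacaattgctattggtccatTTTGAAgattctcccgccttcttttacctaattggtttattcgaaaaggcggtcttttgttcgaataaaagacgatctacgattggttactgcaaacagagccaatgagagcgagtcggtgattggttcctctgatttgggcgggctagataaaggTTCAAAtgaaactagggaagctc
Kif11: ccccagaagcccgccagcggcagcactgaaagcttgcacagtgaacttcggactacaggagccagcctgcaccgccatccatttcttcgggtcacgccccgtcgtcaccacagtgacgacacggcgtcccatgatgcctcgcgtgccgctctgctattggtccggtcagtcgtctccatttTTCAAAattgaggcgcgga

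Lmnb1, the lamin gene whose loss accompanies senescence, stood at 72.2, 60.1, 82.8 and 71 CPM untreated and 55.6, 58.5, 70.5 and 65.2 CPM at 10 Gy. It was lower in all 4 pairs and did not pass (log2 -0.18, adjusted p = 0.0913). Cdkn2a, the locus of the p16 and ARF inhibitors, went from 50.5, 65.8, 33.7 and 32.7 CPM to 40.7, 54.3, 26.7 and 30.2 CPM. It fell in every animal (log2 fold change -0.24 ± 0.058 (SE), adjusted p = 0.0207), and this call was lost without replicate 2 (adjusted p = 0.113) or 3 (0.155). The deposited counts are per gene, so the p16 and ARF transcripts cannot be told apart.

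Interferon-stimulated genes rose from low levels. Of 45 listed genes 39 were tested, 11 rose and none fell, with a median change of 0.47, where 5.42% of all genes tested rose; Mx1, Mx2, Oas1a, Oas2, Oas3 and Psmb9 were too low to test. Oasl1 (chr5:115061299-115075974, plus strand, GRCm39), an oligoadenylate synthetase-like antiviral protein, went from 0.274, 0.539, 0.366 and 0.281 CPM to 1.39, 2.43, 3.15 and 3.14 CPM. All irradiated values exceeded all untreated ones, by 6.85-fold (log2 fold change 2.78 ± 0.26 (SE), adjusted p = 0.000158). Rsad2, which encodes viperin, went from 0.24, 0.0634, 0.183 and 0.249 CPM to 0.707, 1.12, 1.52 and 1.64 CPM without overlap (6.68-fold; log2 fold change 2.74 ± 0.36 (SE), adjusted p = 0.000836), with untreated replicate 2 below the level of 3 counts. Ifit1, which binds foreign RNA caps, went from 1.58, 0.634, 2.01 and 2.31 CPM to 3.64, 5.68, 9.08 and 8.29 CPM without overlap (4.13-fold; log2 fold change 2.05 ± 0.23 (SE), adjusted p = 0.000338). Cxcl10, a chemokine for T cells, went from 0.549, 0.476, 0.513 and 0.405 CPM to 1.54, 1.62, 2.13 and 2.3 CPM without overlap (3.9-fold; log2 fold change 1.96 ± 0.24 (SE), adjusted p = 0.000566).

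Isg15, the ubiquitin-like modifier, went from 1.03, 1.21, 1.57 and 2.09 CPM to 1.79, 2.57, 5.76 and 3.73 CPM, so that the lowest irradiated value, in replicate 1, lay within the untreated range (log2 fold change 1.19 ± 0.20 (SE), adjusted p = 0.00344). Ifih1, the cytosolic RNA sensor MDA5, went from 5.55, 4.12, 5.82 and 6.21 CPM to 6.37, 8.29, 9.45 and 7.11 CPM (log2 fold change 0.54 ± 0.14 (SE), adjusted p = 0.0316; 0.172 without replicate 2 and 0.205 without replicate 3). Ifit3, Ifit3b, Oasl2, Ifi44 and the peptide transporter Tap1 also rose, by 0.47 to 1.69 on the log2 scale; Ifit3 and Ifit3b are near-identical copies, and their counts are uncertain because reads that map to several places were left out. Transcription factors of the pathway that did not pass include Stat2, Irf9 and Irf7: Stat2 changed by 0.18, Irf9 by 0.024 and Irf7, low in every library, by 0.37. The rise was weakest in replicate 4 (list median 0.09) and strongest in replicate 3 (0.70), with 0.36 and 0.40 in replicates 1 and 2. Without replicate 1, 16 rose (11.7% of all genes did) and 1 (Isg20) fell, without replicate 4, 13 rose, and without replicate 2 or 3 only 5 and 6 did; Oasl1, Ifit1, Cxcl10, Rsad2 and Isg15 were called whichever animal was left out. Immune cell markers summed to 10.6 to 27.6 CPM in untreated and 10.4 to 23.9 CPM in irradiated libraries, with Ptprc at 0 to 0.169 CPM, and none of the 3 that were tested was called.

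Promoters of 3 of these genes are shown for the interferon-stimulated response element, searched as GAAANNGAAA on both strands of the same 300 bases. It was present in 17 of the 32 listed genes with a promoter in the table (53.1%), in 7 of the 11 that rose, in 3.6% of tested genes and in 3.99% of all promoters. Each sequence gives the 200 bases before the start (RefSeq, GRCm38.p6) with matches in capitals: Ifit1 (chr19:34640689-34640888, plus strand) has 2, beginning 104 and 85 bases before its start, Rsad2 (chr12:26456453-26456652, minus strand) has 1 beginning 120 bases before, and Isg15 (chr4:156200819-156201018, minus strand) has 3 that overlap, beginning 78, 72 and 66 bases before.
Ifit1: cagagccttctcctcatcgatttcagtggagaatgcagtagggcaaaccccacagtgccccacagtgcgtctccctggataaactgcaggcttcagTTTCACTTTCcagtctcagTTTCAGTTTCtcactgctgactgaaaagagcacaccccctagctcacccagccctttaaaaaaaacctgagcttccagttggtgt
Rsad2: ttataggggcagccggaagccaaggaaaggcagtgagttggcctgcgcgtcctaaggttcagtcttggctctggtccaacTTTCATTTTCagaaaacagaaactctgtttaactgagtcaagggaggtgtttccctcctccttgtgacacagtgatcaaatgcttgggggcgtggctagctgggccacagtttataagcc
Isg15: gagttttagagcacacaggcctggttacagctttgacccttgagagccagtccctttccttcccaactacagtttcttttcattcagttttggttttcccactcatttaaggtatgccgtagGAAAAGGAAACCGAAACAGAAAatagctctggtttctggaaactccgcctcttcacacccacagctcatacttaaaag
All 3 genes were lower at 20 Gy than at 10 Gy, as described next.

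At 20 Gy, 24 h after irradiation, the same animals carried a further library each, tested against 10 Gy directly. 211 of 14644 genes differed (1.44%), 163 higher (1.11%) and 48 lower (0.328%) at the higher dose. No gene passed without the animal block (277 had an unadjusted p below 0.05), DESeq2 with the block called 133, and without replicate 1, 2, 3 or 4 edgeR called 409, 99, 79 or 85. Of 39 interferon-stimulated genes, 10 were lower at 20 Gy than at 10 Gy, none was higher, and the median difference was -0.28. Ifit1 at 20 Gy was 1.02, 1.91, 2.01 and 2.18 CPM, below every 10 Gy value (log2 difference -1.90 ± 0.13). Rsad2 at 20 Gy was 0.305, 0.405, 0.34 and 0.476 CPM (-1.70), and Oasl1 was 0.609, 0.752, 1.16 and 0.902 CPM (-1.56), both below all 10 Gy values. Cxcl10 (-1.28), Ifit3 (-1.16), Isg15 (-0.97), Oasl2 (-0.76), Ifih1 (-0.63), Parp9 (-0.39) and Stat2 (-0.26) were the others. Oasl1, Ifit1, Rsad2 and Cxcl10 were named for their rise in these same 10 Gy libraries, and Ifih1 for its difference between the doses. No p-value is therefore given for them singly. Against the untreated cells, 2 of 38 were higher at 20 Gy and 1 lower, where 8.2% and 9.45% of all genes tested were (17.6% in all, 2563 of 14526). Both doses are compared with the same untreated libraries. From 6 to 13 of the list were lower at 20 Gy than at 10 Gy when an animal was left out, and 6 of the 10 remained in every such fit.

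**Figure D3:**
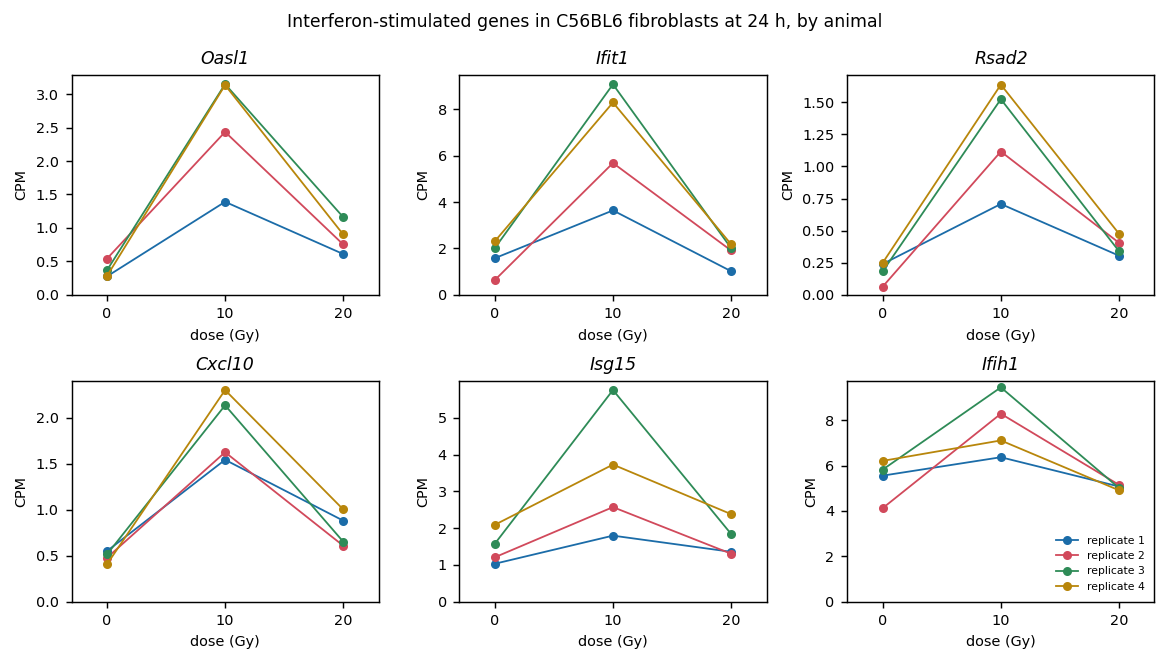
Levels of 6 interferon-stimulated genes in C56BL6 fibroblasts 24 h after 0, 10 and 20 Gy, in CPM (vertical axes); each line joins the libraries of 1 animal. Each gene peaks at 10 Gy in every animal. Ifit1 stands at 3.64 to 9.08 CPM at 10 Gy and at 1.02 to 2.18 CPM at 20 Gy. Oasl1, Ifit1, Rsad2 and Cxcl10 were chosen for their rise at 10 Gy, and Ifih1 for its difference between 10 and 20 Gy.

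Mitotic genes went the other way with dose. At 20 Gy 37 of the 48 were higher than at 10 Gy and none was lower, where 1.11% and 0.328% of all genes tested were. All 48 had a positive difference, and the median difference was 0.27. Against the untreated cells, 14 of the 48 were higher at 20 Gy and 2 lower (median 0.12), beside 8.2% and 9.45% of all genes tested. Nusap1, a spindle microtubule protein, was 24.9, 23.9, 29.9 and 25.7 CPM at 10 Gy and 34, 40.7, 45.3 and 37.3 CPM at 20 Gy. Every 20 Gy value lay above every 10 Gy value (log2 difference 0.58 ± 0.052). No p-value is given for Nusap1, since its difference between these doses chose it. Top2a was 247, 257, 317 and 271 CPM at 20 Gy, above all 10 Gy values and close to the untreated ones (difference 0.43, adjusted p = 5.37e-06). Ccnb1 was 49.2, 49.3, 60.7 and 58.1 CPM at 10 Gy and 59.2, 68.9, 90.5 and 81.1 CPM at 20 Gy (0.45, adjusted p = 2.08e-05). Ccna2 and Aurkb were also higher at 20 Gy (differences 0.17 and 0.32), whereas Mki67, Fbxo5 and Foxm1 were not called (0.021, 0.18 and 0.10). Of the 37, 19 remained whichever animal was left out, and 20 to 36 mitotic genes were called higher in those fits.

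Summed over the mitotic list, replicates 1 to 4 held 3400, 2372, 3153 and 2824 CPM untreated, 2676, 2321, 2819 and 2661 CPM at 10 Gy, and 3002, 2847, 3636 and 3169 CPM at 20 Gy. The sum was lowest at 10 Gy in every animal. For DNA replication, 5 of 45 genes were higher at 20 Gy (Mcm3, Mcm5, Mcm10, Cdt1 and Chaf1a) and none lower, but 1, 1 and 2 were without replicate 2, 3 or 4 and 13 without replicate 1, and none of the 5 was called in every fit. Its sums were 2269, 1869, 2113 and 1943 CPM untreated, 1741, 1839, 2022 and 1904 CPM at 10 Gy and 1783, 2022, 2307 and 2018 CPM at 20 Gy. Among the 48 p53 targets 8 were higher at 20 Gy than at 10 Gy and none lower (median 0.044), among them Pmaip1 (0.37), Pidd1 (0.31), Inka2 (0.26) and Gdf15 (0.23), where 1.11% of all genes were higher. Only 4, 2 and 2 of the 8 were called without replicate 2, 3 or 4: Pidd1 and Gdf15 were lost in each of these fits and Inka2 without replicate 3 or 4. Mdm2 (0.12, adjusted p = 0.0672), Cdkn1a (0.067) and Cd80 (0.034) were not called different. The largest differences at a mean of at least 5 CPM were, above 10 Gy, the mitochondrial fission regulator Mtfr2 (0.66), the kinesin Kifc5b (0.59) and Nusap1, and below it Ifih1, the gap junction gene Gjb2 (-0.51) and Prl2c2 (-0.48), a prolactin-family gene whose near-identical copies make its count uncertain.

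**Figure D4:**
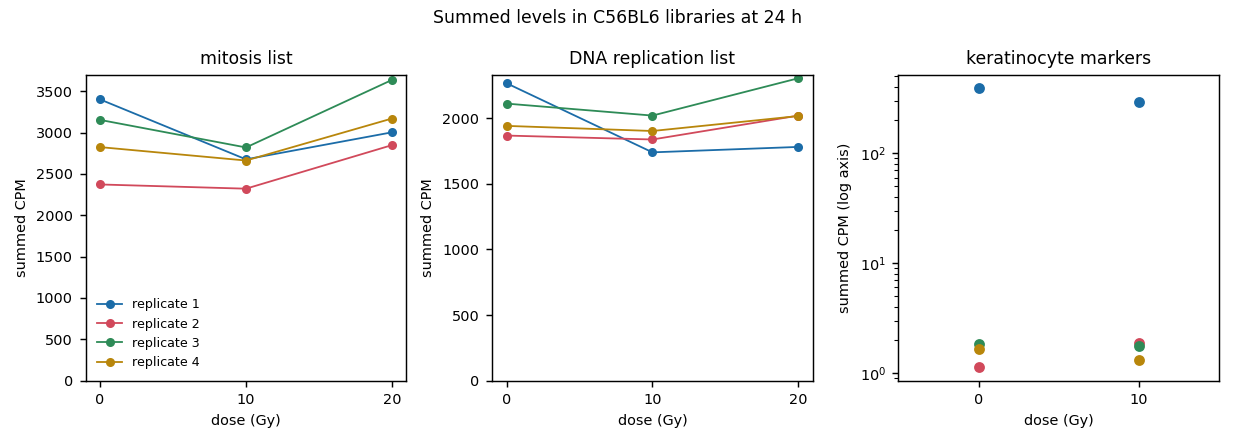
Summed level of the mitosis list and of the DNA replication list at 0, 10 and 20 Gy, and of keratinocyte markers at 0 and 10 Gy on a log axis, in CPM, for the 4 C56BL6 animals; each line joins the libraries of 1 animal. The mitotic sum is lowest at 10 Gy in each animal, and the keratinocyte sum is near 300 to 400 CPM in replicate 1 and near 1 to 2 CPM in the others.

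The genes that fell most among those with a mean of at least 5 CPM were Pappa2, Col28a1, Sod3, Sfrp1, Lbp, Islr, Ptx3, Serping1, Ggt5, Cp, Ly6c1 and Gas1, down 2.26-fold to 3.62-fold and lower in all 4 pairs. Sfrp1 (chr8:23901518-23939648, plus strand, GRCm39), a secreted antagonist of WNT ligands, stood at 39.5, 229.9, 1034 and 700.2 CPM untreated and at 15.8, 78.6, 334 and 175 CPM after 10 Gy. Baselines differed widely between animals, so the groups overlapped, yet each animal fell (3.09-fold; log2 fold change -1.63 ± 0.086 (SE), adjusted p = 3.28e-06). Ptx3, the soluble pattern receptor pentraxin 3, went from 22.4, 84.2, 363 and 316 CPM to 8.82, 38.7, 119 and 117 CPM (2.59-fold lower; log2 fold change -1.37 ± 0.072 (SE), adjusted p = 3.28e-06). Ly6c1, a surface antigen, went from 34, 30, 64.2 and 57.9 CPM to 14.4, 12.6, 28.9 and 24.9 CPM without overlap (log2 fold change -1.19 ± 0.056 (SE), adjusted p = 2.57e-06). Sod3, the extracellular superoxide dismutase, went from 2.71, 8.69, 24.3 and 25.2 CPM to 0.91, 2.98, 7.48 and 6.06 CPM (3.35-fold lower; log2 fold change -1.74 ± 0.11 (SE), adjusted p = 1.05e-05).

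Pappa2, a protease of insulin-like growth factor binding proteins, went from 0.274, 6.82, 21.7 and 16.5 CPM to 0.152, 2, 6.2 and 3.8 CPM (3.62-fold lower; log2 fold change -1.86 ± 0.13 (SE), adjusted p = 2.09e-05). Col28a1, a minor collagen, went from 0.857, 4.15, 23 and 13.8 CPM to 0.531, 1.79, 6.27 and 2.4 CPM (3.48-fold lower; log2 fold change -1.80 ± 0.21 (SE), adjusted p = 0.000444). Both were below 1 CPM in replicate 1, the animal with keratinocyte markers, before and after irradiation. Lbp, a lipopolysaccharide-binding protein, fell 2.92-fold, Islr, a stromal cell protein, 2.77-fold, Serping1, the C1 inhibitor, 2.58-fold, Cp, ceruloplasmin, 2.37-fold, and Gas1, a growth arrest gene, 2.26-fold. Ggt5, a glutamyl transferase, had its highest levels in replicate 1 and fell 2.4-fold (adjusted p = 0.0173; 0.0902 without replicate 3). At 20 Gy, Sfrp1, Ptx3 and Pappa2 were -1.72, -1.42 and -1.70 from untreated, and their differences from 10 Gy were not called (-0.089, -0.049 and 0.16). Tested fibroblast markers moved in the same direction (median -0.38). Of 7 tested, 5 fell (Col3a1, Dcn, Pdgfra, Pdgfrb and Thy1), beside 6.11% of all genes tested. Without replicate 2, where Col3a1 and Dcn were lost, 3 fell, and without replicate 3, where Col3a1 was lost, 4 fell. Col1a1 (-0.03) and Col1a2 (-0.081) did not pass. The summed level of all 9 listed markers rose in replicate 1, from 11400 to 12560 CPM. In replicates 2 to 4 that sum fell, from 19170, 17460 and 21860 CPM to 17110, 15410 and 17850 CPM. The part of a shift in fibroblast state or number in these falls was not tested.

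The genes that rose most at that level were Cd80, Ano3, Ccbe1, G930009F23Rik, Havcr2, F730311O21Rik, Vmn2r79, Igsf9b, Lgr6, Klk8, Ano1 and Gm35940, up 2-fold to 2.75-fold. Ano3, a scramblase of the anoctamin family, went from 2.3, 8.47, 5.64 and 3.27 CPM to 4.98, 14.7, 13.3 and 12.1 CPM (log2 fold change 1.26 ± 0.15 (SE), adjusted p = 0.00055), and Ano1, a calcium-activated chloride channel of the same family, went from 5.73, 2.28, 2.82 and 2.4 CPM to 10.5, 4.57, 6.54 and 5.37 CPM (log2 fold change 1.06 ± 0.12 (SE), adjusted p = 0.000338). Each pair rose, but the groups overlapped. Havcr2, the inhibitory receptor TIM-3, went from 14.3, 7.9, 7.47 and 5.15 CPM to 20.2, 18.5, 18.5 and 15.6 CPM; the irradiated values all lay above the untreated ones (log2 fold change 1.14 ± 0.15 (SE), adjusted p = 0.000836). Igsf9b, an adhesion molecule, went from 4.25, 5.26, 3.81 and 4.24 CPM to 8.34, 9.88, 10.2 and 9.37 CPM without overlap (log2 fold change 1.12 ± 0.11 (SE), adjusted p = 0.000177). The long noncoding RNA gene Gm35940 went from 7.58, 8.56, 9.19 and 10 CPM to 15.8, 18.6, 18.5 and 17 CPM without overlap (log2 fold change 1.0 ± 0.081 (SE), adjusted p = 8.04e-05).

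Lgr6, a receptor for R-spondins, was 122, 8.09, 4.36 and 1.12 CPM untreated and 139, 20.7, 12.8 and 8.01 CPM at 10 Gy. It was high in replicate 1 at both doses, rose little there and rose more in the others (log2 fold change 1.09 ± 0.27 (SE), adjusted p = 0.0226; log2 1.72, adjusted p = 1.19e-07 without replicate 1, and 0.127 and 0.126 without replicate 2 or 3). Klk8, a serine protease, was 7.03, 5.33, 4.25 and 2.74 CPM untreated and 7.45, 9.84, 11.1 and 11.7 CPM at 10 Gy (log2 fold change 1.08 ± 0.24 (SE), adjusted p = 0.015; 0.115 without replicate 3). Ccbe1, a matrix protein of lymphatic growth, rose 2.23-fold (adjusted p = 0.00145), and the unnamed transcripts G930009F23Rik and F730311O21Rik 2.21-fold and 2.19-fold. Vmn2r79, a vomeronasal receptor gene with near-identical copies, rose 2.18-fold, and its count is uncertain for that reason.

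The secretory list of senescent cells was split, with 7 of 33 tested genes higher and 10 lower (42 listed; median -0.077), where 5.42% and 6.11% of all genes tested were. Il6, the best known of its cytokines, went from 4.87, 28.5, 65.9 and 50.8 CPM to 5.08, 24.7, 40.9 and 34.6 CPM. It fell in 3 animals and not in replicate 1, where it was low (log2 fold change -0.39 ± 0.099 (SE), adjusted p = 0.0269; 0.06 without replicate 2, 0.267 without replicate 3 and 0.109 without replicate 4). Igfbp5, an insulin-like growth factor binding protein, fell from 3.63, 5.33, 57 and 31.4 CPM to 2.73, 3.21, 19.9 and 12 CPM (log2 fold change -1.15 ± 0.15 (SE), adjusted p = 0.000827). The neutrophil chemokine Cxcl5 fell 1.57-fold (adjusted p = 0.00235), the keratinocyte growth factor Fgf7 1.27-fold (adjusted p = 0.000982) and the interleukin 33 receptor Il1rl1 1.29-fold (adjusted p = 0.00132).

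On the other side, Serpine2, a protease inhibitor, rose from 9.64, 1.81, 15.7 and 7.42 CPM to 21.1, 4.13, 22.3 and 15.2 CPM in every animal (log2 fold change 0.94 ± 0.11 (SE), adjusted p = 0.000609). Icam1, the leukocyte adhesion molecule, went from 2.16, 1.78, 2.38 and 2 CPM to 2.73, 2.77, 4.71 and 5.68 CPM, without overlap (log2 fold change 0.91 ± 0.19 (SE), adjusted p = 0.0113; 0.0503 without replicate 4 and 0.0909 without replicate 3), and was higher again at 20 Gy (difference 0.53, adjusted p = 0.0101), a call that was lost without replicate 2, 3 or 4. The growth factors Fgf2 (1.32-fold, adjusted p = 0.00206) and Ereg (1.26-fold, adjusted p = 0.00519) rose as well. From 3 to 8 of the list rose and 6 to 12 fell when an animal was left out.

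Among genes of the extracellular matrix 9 of 33 fell and 1 rose (median -0.094), beside 6.11% and 5.42% of all genes tested. Without replicate 1, 18 fell (12% of all genes) and 2 rose, without replicate 2, 3 or 4 there fell 5, 6 and 10, and 5 of the 10 calls were made in every fit. Fmod, a collagen-binding proteoglycan, went from 35.6, 45.9, 171 and 153 CPM to 26.9, 23.6, 92.4 and 71.3 CPM (1.78-fold lower; log2 fold change -0.83 ± 0.088 (SE), adjusted p = 0.000277). The collagen VI genes Col6a2 and Col6a1 fell 1.71-fold (adjusted p = 0.000343) and 1.56-fold (adjusted p = 0.000516), and the crosslinking enzyme gene Loxl1 1.27-fold (adjusted p = 0.000686). Its relative Loxl2 was the gene that rose, 1.18-fold (adjusted p = 0.00998; 0.0934 without replicate 3). Eln, elastin, changed by -1.53 and Dcn, decorin, by -1.03, both called, and the Eln call was lost without replicate 2 or 3 (adjusted p up to 0.0709) and the Dcn call without replicate 2 (up to 0.0661). Of 18 contractile genes 2 fell, near the 6.11% of all genes tested, the tropomyosin gene Tpm4 (1.19-fold) and Ccn1 (1.23-fold), a matricellular target of mechanical signalling, and both calls were lost without replicate 3 (adjusted p = 0.13 and 0.055).

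Immediate early genes, which serum and growth factor signalling raise within minutes, were lower 24 h after 10 Gy. Of 20, 9 fell and none rose (median -0.27; 6.11% of all genes tested fell), and 8 of the 9 remained whichever animal was left out. Fos went from 24.9, 38, 71.2 and 55.4 CPM to 12.1, 21.2, 29.8 and 34.2 CPM, down in each animal (1.92-fold; log2 fold change -0.94 ± 0.087 (SE), adjusted p = 0.000158). Egr1, a zinc finger factor, went from 486, 346, 455 and 401 CPM to 339.8, 273, 297 and 288 CPM with no overlap (log2 fold change -0.47 ± 0.054 (SE), adjusted p = 0.000419). Ier2 went from 71, 62.1, 80.9 and 69.7 CPM to 46.6, 45.8, 47.5 and 50.6 CPM with no overlap (log2 fold change -0.55 ± 0.063 (SE), adjusted p = 0.000418), and Junb from 76.9, 83.1, 124 and 117 CPM to 55.5, 63.6, 77.8 and 80.6 CPM (log2 fold change -0.50 ± 0.054 (SE), adjusted p = 0.000327). All 4 pairs fell for each of them. At 20 Gy 14 of the 20 were lower than untreated (9.45% of all genes were), and no member differed between 10 and 20 Gy.

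Several metabolic and stress lists shifted by small amounts. For cholesterol synthesis 6 of 24 genes fell and none rose (median -0.15; 6.11% of all genes tested fell): the epoxidase Sqle 1.27-fold (adjusted p = 0.00137), the demethylase Cyp51 1.22-fold (adjusted p = 0.00269), the regulator Srebf2 1.21-fold (adjusted p = 0.00588; 0.068 without replicate 3), Pmvk, Fdft1 and Stard4. Only 2 of the 6 remained without replicate 2 or 3. In the list of amino acid and endoplasmic reticulum stress 9 of 21 fell and 1 rose (median -0.15; 6.11% and 5.42% of all genes tested). Of the 10 calls 4 were made in every fit: 10, 6, 4 and 7 genes fell without replicate 1, 2, 3 or 4. The pseudokinase Trib3 fell 1.31-fold (adjusted p = 0.00132), the glutathione-degrading enzyme Chac1 1.37-fold (adjusted p = 0.00132), the unfolded protein factor Xbp1 1.23-fold (adjusted p = 0.00337) and Herpud1 1.25-fold (adjusted p = 0.0047), while Ddit4, an inhibitor of mTORC1, rose 1.14-fold (adjusted p = 0.0438; 0.129, 0.251 and 0.128 without replicate 2, 3 or 4).

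Antioxidant genes were divided, 4 of 25 higher and 4 lower (median 0.025), where 5.42% and 6.11% of all genes tested were. Without replicate 1, 9 were higher and 4 lower, beside 11.7% and 12% of all genes, and 3 of the 8 calls were made in every fit. The plasma peroxidase Gpx3 rose 1.24-fold (adjusted p = 0.00278), haem oxygenase Hmox1 1.2-fold (adjusted p = 0.0198), thioredoxin reductase Txnrd1 1.2-fold (adjusted p = 0.0245) and Taldo1 1.14-fold (adjusted p = 0.0482); the last 3 lost the call without replicate 3 (0.16, 0.199 and 0.303). Sod3, the metallothioneins Mt1 (-0.31) and Mt2 (-0.75) and the transferase Gstm1 (-0.37) fell. The Mt1 call was lost without replicate 2 or 3 (adjusted p up to 0.0638) and the Mt2 call without replicate 3 or 4 (up to 0.174). Of 35 genes of double-strand break signalling and repair, 1 fell and none rose, below the 6.11% and 5.42% of all genes tested. Without replicate 1, 2 fell and 2 rose, beside 12% and 11.7% of all genes. The gene called with all animals was H2ax, the histone variant phosphorylated at breaks. H2ax fell from 20.5, 18.7, 21 and 22.2 CPM to 15.5, 16.2, 14.9 and 17.4 CPM without overlap (log2 fold change -0.35 ± 0.071 (SE), adjusted p = 0.01; 0.106 without replicate 3).

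Wild mouse fibroblasts served as a second mouse population at the same dose and time. With all libraries, no gene was called different in its response between wild and C56BL6 cells (0 of 15496, 0%, by edgeR with the animal block). An unadjusted p below 0.05 was found for 959, and DESeq2 called 175. On simulated counts this edgeR comparison found 0% of planted 1.5-fold and 0% of planted 2-fold differences. A count of 0 therefore cannot show that the 2 populations responded alike. The wild 10 Gy library of replicate 1 held 17419339 counts and 17843 detected genes, the fewest of the mouse libraries used here, and without that animal 843 of 15659 genes differed (5.38%), 377 with a higher (2.41%) and 466 with a lower change (2.98%) in wild cells. The animal left out was unlike replicates 2 to 4 in more than depth. Its replication list summed to 1235 CPM untreated and 1355 CPM at 10 Gy, whereas theirs fell. Its p53 feedback sum went from 1085 to 1013 CPM, whereas theirs rose. Its mitotic sum did fall, from 1828 to 1508 CPM. Its untreated contractile sum was 52145 CPM, against 22833 to 30771 CPM in theirs. Its p53 feedback and replication sums moved against the contrast that follows, so leaving it out favours that contrast. With any other animal left out, edgeR called 0 genes. Without wild replicate 1, C56BL6 cells had the smaller changes in p53 targets and in proliferation. The change was higher in wild cells for 18 of 48 p53 targets and lower for 2, lower for 46 of 48 mitotic genes and for 30 of 45 replication genes. The p53 median was 0.67 in wild cells (46 tested) and the mitotic median -0.94, against 0.28 and -0.16 in C56BL6. Cdkn1a changed by 1.42 in wild and 0.42 in C56BL6 cells (difference 1.0 ± 0.14, adjusted p = 0.00101; 0.302 with all libraries). Mdm2 changed by 1.36 and 0.86 (difference 0.49, 0.00292; 0.843 with all libraries), and Top2a by -1.18 and -0.31 (difference -0.87, 0.000411; 0.271 with all libraries).

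With all libraries 0 of 43 interferon-stimulated genes were called, as for every other gene. Without wild replicate 1, 1 of 44 had a lower change in wild cells and none a higher one, near the 2.98% of all genes. That gene, Isg15, changed by 0.043 in wild and 1.19 in C56BL6 cells. Without wild replicate 1 the largest differences at a mean of at least 5 CPM were in the prolactin-family genes Prl2c3 (2.88) and Prl2c2 (2.77), whose copies share reads, and in the kinase gene Hunk (1.94), all higher in wild cells. On the lower side they were the growth factor binding protein Igfbp3 (-2.09), H2-T10 (-1.28), a class I gene with near-identical copies, and the recombination factor Rad51ap1 (-1.25). Each of these values is the change in wild cells minus that in C56BL6 cells, on the log2 scale.

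A. cahirinus fibroblasts were counted against their own assembly, so only changes within each species were compared, over genes with a shared symbol. 2121 of 13558 genes differed in their response from C56BL6 (15.6%), 1075 with a higher (7.93%) and 1046 with a lower change (7.72%). Without the animal block 208 differed, 11 higher and 197 lower. In the proliferation lists, all 48 mitotic genes and 42 of 45 replication genes had a lower change in A. cahirinus, and none a higher one. Their medians were -1.83 and -1.05 in A. cahirinus and -0.16 and -0.20 in C56BL6. Aurkb changed by -2.14 in A. cahirinus and -0.51 in C56BL6 (difference -1.62 ± 0.13). Ccnb2 changed by -2.20 and -0.041 (difference -2.15 ± 0.17). No p-value is given for either, since Aurkb was named for its fall in C56BL6 and Ccnb2 for this difference. Leaving out any one animal of either species, 47 or 48 mitotic genes stayed called.

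The p53 targets were divided. Of 46 tested, 11 had a higher and 7 a lower change in A. cahirinus, beside 7.93% and 7.72% of all genes. Mdm2 changed by 0.71 there and 0.86 in C56BL6, a difference that was not called (-0.15 ± 0.083, adjusted p = 0.264). Cdkn1a (1.10 against 0.42; adjusted p = 4.98e-05), Eda2r (1.89 against 0.68; 0.000109) and Ccng1 (1.26 against 0.74; 0.00262) rose more in A. cahirinus. Dcxr (0.12 against 0.89; 0.000556), Pidd1 (0.30 against 0.87; 0.00447) and Tnfrsf10b (-0.07 against 0.47; 6.8e-05) had the larger change in C56BL6.

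Sfrp1 and Ptx3, named for their fall in C56BL6, changed by 0.094 and 0.027 in A. cahirinus, beside -1.63 and -1.37; no test is given, since the C56BL6 values chose them. Immediate early genes had a higher change in A. cahirinus for 13 of 20 and a lower one for none, beside 7.93% and 7.72% of all genes. Fos changed by 0.21 there and by -0.94 in C56BL6, and no test is given, since its fall in C56BL6 chose it. Interferon-stimulated genes had a higher change in A. cahirinus for 2 of 37 (5.41%), below the 7.93% of all genes, and a lower one for none. Their median difference was -0.037, with 17 positive and 20 negative. The largest single differences at a mean of at least 5 CPM were lower for Havcr2 (-2.27), Ccnb2 and Gemin4, and higher for Rassf4 (2.35), Rspo3 (2.15) and Lum (2.12). The mean runs over both species. Gemin4 was at 0 in every untreated C56BL6 library and at 0.025 to 0.135 CPM after 10 Gy, about the level of 3 counts, so no fold is given for it. Rspo3 and Lum stood below 1 CPM in all 8 C56BL6 libraries, so their differences rest on few counts there.

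**Figure D5:**
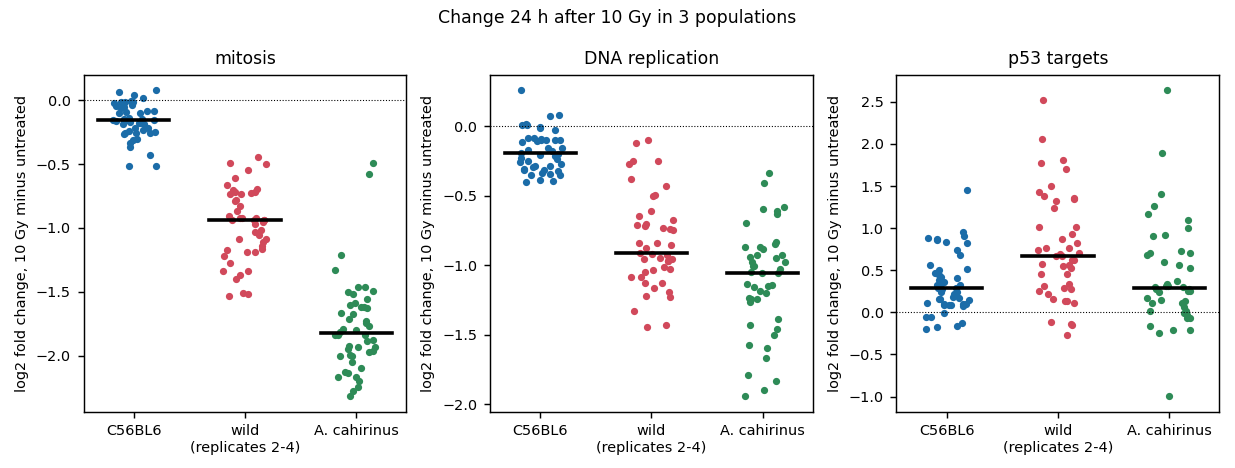
Log2 fold change at 10 Gy (vertical axis) of each tested gene of the mitosis, DNA replication and p53 lists in C56BL6 mice, in wild mice (replicates 2 to 4) and in A. cahirinus; bars are medians. The mitotic medians are -0.16, -0.94 and -1.83, while the p53 medians are 0.28, 0.67 and 0.29. The wild animal left out differed from the others in its p53 feedback and replication sums. With it included, edgeR called no gene different between wild and C56BL6 cells.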

How the data were processed

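Gene counts were made from mRNA sequencing of 84 libraries. The deposited counts are raw reads per gene, assigned by the authors with featureCounts 2.0.3, per the file headers, without a strand option and without reads that map to several places, so reads of a gene and an overlapping antisense gene cannot be told apart. Mouse reads were counted on GRCm39 with Ensembl 108 and A. cahirinus reads on AcoCah2 by gene name, per the file headers. Trim Galore and HISAT2 stand in the submitters' processing notes; their versions are not given in the sources used here. Of 56980 mouse gene identifiers 56236 carried a symbol, 18109 symbols were shared with A. cahirinus, and all 84 count columns matched a library title.

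From these counts, edgeR 4.0.16 (R 4.3.3) was run with filterByExpr, TMM scaling, the quasi-likelihood test, the animal as a block and Benjamini-Hochberg adjustment at 0.05. Simulated counts had changes planted only in genes with a mean of at least 5 CPM. From them the script recovered 99% of planted 1.5-fold and 100% of planted 2-fold changes for 10 Gy against untreated. For 20 Gy against 10 Gy it recovered 100% of both. For A. cahirinus against C56BL6 the shares were 38% and 95%, and for wild against C56BL6 0% and 0%. False calls numbered 15, 16, 16 and 0 in these comparisons, in that order. Recovery in genes below 5 CPM was not tested. The animal codes in the library names give the pairing; deviations of same-numbered libraries correlated at 0.61 to 0.84, and of differently numbered ones at -0.60 to 0.50. CPM levels use TMM over the 12 C56BL6 libraries of 24 h, and changes of single pairs a prior count of 2. Differences between populations are interaction terms. Replicates of 1 group differed by 8.07 to 128.8 times the counting variance, so no library was a copy of another.

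Genes named are the 12 that rose and fell most (adjusted p below 0.05, mean of at least 5 CPM, the same direction in all 4 pairs), 9 arrest and senescence genes, all p53 targets, in each pathway list the 4 smallest p-values per direction, and the 3 largest differences per direction in each other comparison. Members and lists were chosen with earlier results of these data known; for genes named beyond the rule, the values were seen first. Alternatives were DESeq2 1.42.0, RLE scaling, no filter, no block, all 3 doses in 1 fit, and each animal left out. The 12 d libraries were not used here.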

Additional observations from a re-analysis of the deposited data

Results flagged for a closer look

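Within a group of 4 libraries, a value was marked when the gap between the extreme library and its nearest neighbour, divided by the group's range, was above Dixon's 95% critical value. Chance marks about 1 in 20 groups; 30 of the 304 groups tested were marked, and most concern replicate 1. In that animal the keratinocyte sum (gap ratio 0.9982 untreated and 0.9982 at 10 Gy), the wider keratinocyte adhesion and keratin sum (0.9531 and 0.9654), Lgr6 (0.9424 and 0.9035), Sfn (0.9824 and 0.9917), Perp (0.9424 and 0.9338) and Il1rl1 (0.86 and 0.8775) were highest in both groups. Untreated replicate 1 was also highest for Ano1 (0.8443) and Zfp365 (0.8726) and lowest for Plk3 (0.8749). At 10 Gy replicate 1 was highest in total counts (0.9114), genes detected (0.8369), Ggt5 (0.9879), Col6a2 (0.8735), Col6a1 (0.856) and Taldo1 (0.8925), and lowest in Serping1 (0.9251) and Inka2 (0.8557).

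Replicate 2 was highest for Dglucy in both groups (0.8304 untreated, 0.8918 at 10 Gy) and for Ei24 in untreated cells (0.83), and lowest for Uhrf1 at 10 Gy (0.9607). Untreated replicate 3 was highest in the adipocyte sum (0.8374). Untreated replicate 4 was lowest in the mitochondrial share (0.8495), and replicate 4 at 10 Gy was highest for Gstm1 (0.9693).

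The 10 Gy change differed between A. cahirinus and C56BL6 for 2121 genes by edgeR's interaction test. The named ones were Havcr2 (-2.27), Gemin4 (-4.86) and Ccnb2 (-2.15), lower in A. cahirinus, and Rassf4 (2.35), Rspo3 (2.15) and Lum (2.12), higher there, on the log2 scale. Gemin4, Rspo3 and Lum were below 1 CPM in every C56BL6 library, so their values depend on few counts, and that of Gemin4, at 0 in untreated C56BL6 cells, is no measured fold.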

How the results depend on the processing

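Without the replicate block, that is without the pairing of libraries by animal, 1 gene passed for 10 Gy against untreated (against 1646), 0 for 20 Gy against 10 Gy (against 211) and 208 for A. cahirinus against C56BL6 (against 2121). For 10 Gy against untreated, 1 fit over all 3 doses gave 2483. For 20 Gy against 10 Gy, omitting the expression filter gave 355 and DESeq2 133. For wild against C56BL6, omitting the filter gave 1 and DESeq2 175, against 0. With 1 animal left out, the counts ran from 509 (without replicate 3) to 3400 (without replicate 1) for 10 Gy, from 79 to 409 for 20 Gy against 10 Gy, from 0 to 843 for wild mice (843 without wild replicate 1, 0 in every other) and from 1425 to 2730 for A. cahirinus. Scaling by RLE gave 1670, 215, 0 and 2106.

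Of the named genes called at 10 Gy, Mdm2 alone was called without the replicate block; 6 were not called by DESeq2, 2 not without the filter, and 17, 31 and 12 not without replicate 2, 3 or 4; none was lost without replicate 1. No called gene changed sign. Among genes that were not called, the sign turned for Sfn (-0.038) and Perp (-0.19) without the replicate block. Leaving out 1 animal, the log2 fold change of Ppm1d at 10 Gy ran from -0.0085 to 0.16. The same fits moved Plk3 between -0.080 and 0.024, Fas between -0.10 and 0.0084, Perp between -0.050 and 0.43, Ddb2 between -0.33 and 0.013, Prl2c2 between -0.24 and 0.092 and Ccnb2 between -0.13 and 0.084; each value is a log2 fold change. Levels below 3 counts (0.0776 to 0.108 CPM) are not distinguishable from 0.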

Other observations

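Genes of WNT signalling, a list chosen after their values were seen, changed in both directions after 10 Gy: of 35 tested, 5 rose and 13 fell by edgeR's quasi-likelihood test, beside 5.42% and 6.11% of all genes tested. The ligand genes Wnt2 (0.89), Wnt5a (0.34), Wnt9a (0.54) and Wnt10b (0.80) and the R-spondin receptor Lgr6 rose, all on the log2 scale. The antagonist Sfrp1, the receptor genes Lgr5 (-1.78), Ror1 (-0.88), Fzd1, Fzd2, Fzd4, Fzd5 and Fzd6, the R-spondin Rspo2 (-0.83), the feedback inhibitors Nkd1 (-0.73) and Nkd2 (-0.75), Dkk3 and Wnt4 fell. Wnt5a stood at 45.1 ± 8.45 CPM untreated and at 56 ± 6.19 CPM after 10 Gy (SD, n = 4) and was higher in every pair. Of these 18 calls 9 remained whichever animal was left out.

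Complement genes, also chosen after their values were seen, fell in 4 of 15 and rose in 1, beside the same shares of all genes. C3, the central component, went from 3.02, 18.2, 19.7 and 20.1 CPM to 2.91, 11.4, 9.04 and 8.08 CPM (log2 -0.86, adjusted p = 0.00435). C4b went from 0.0686, 3.33, 5.42 and 7.42 CPM to 0.0505, 1.18, 1.86 and 1.46 CPM (log2 -1.76, adjusted p = 0.000481), C1ra changed by -0.69 and Serping1 by -1.36, while C3ar1, the receptor of the C3a fragment, changed by 0.76. Of the 5 calls 3 remained whichever animal was left out. Of 10 tested genes of keratinocyte adhesion, 1 rose, the integrin gene Itga6, from 113 ± 109 CPM to 149 ± 80.6 CPM (SD, n = 4; log2 0.69, adjusted p = 0.0129); this call was lost without replicate 2 or 3 (adjusted p up to 0.109). Without replicate 1, whose libraries held keratinocyte transcripts, 5 of 9 rose, where 11.7% of all genes did.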
